A study of Mus musculus with 6 samples.

Results

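Complex I transcripts were compared between E14 mouse embryonic stem cells with and without the Pml gene, all treated with paraquat. The members were the genes of the deposited RNA sequencing table whose name begins with Nduf, which were 45 of 24421 genes. By a list of complex I proteins, 36 of them encode subunits and 7 are the assembly factors Ndufaf1 to Ndufaf7. The other 2 are Ndufa4, now counted as a subunit of complex IV, and its paralog Ndufa4l2.

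The wild-type group was E14 cells (n = 2 libraries), and the other group was E14 cells of genotype Pml-/- (n = 2 libraries). Both groups received 10 µM paraquat for 15 h, in a medium with CHIR99021 (which inhibits GSK3), PD0325901 (which inhibits MEK) and leukemia inhibitory factor. No untreated library enters the comparison, so it shows how the genotypes differ under paraquat and not how cells respond to it. The labels do not say whether the knockout line is a single clone or whether replicate libraries had their own cultures. The p-values therefore measure the spread between libraries alone, which may be technical. The extraction entry of wild-type library 2 names a DNA library kit where that of wild-type library 1 names an RNA kit, and its part in the results was not tested.

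Complex I, the NADH:ubiquinone oxidoreductase of the inner mitochondrial membrane, passes electrons from NADH through a flavin and a chain of iron-sulfur clusters to ubiquinone and pumps protons. Its matrix arm holds the NADH-oxidising N module and the ubiquinone-reducing Q module, and its membrane arm holds the proton pumps, whose core proteins are encoded in the mitochondrial genome. Nuclear genes encode the core subunits of the matrix arm and many accessory subunits around both arms, and assembly factors join the modules without staying in the finished enzyme. Paraquat can take an electron from complex I and hand it to oxygen, which gives superoxide. PML, the product of Pml, is the scaffold of PML nuclear bodies.

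Libraries held 31384794 to 44130093 reads counted in genes. The Pml transcript fell from 238 and 228 CPM (reads per 1000000) in wild type to 78.7 and 89.7 CPM in the knockout (a log2 fold change of -1.46 with SE 0.06, limma adjusted p = 4.43e-10). Which part of the gene was deleted is not stated in the labels, so what remains of the transcript says nothing of the protein. The 8 embryonic stem cell markers examined, among them Pou5f1, Nanog and Sox2, were each at 209 CPM or more in every library. Of these, Zfp42 fell and Tfcp2l1 and Tdgf1 rose in the knockout, with log2 fold changes of -0.27, 0.29 and 0.17. That is 1 of 8 called lower (12.5%) and 2 higher (25%), against 3.45% and 1.95% of all tested genes. An unadjusted limma p under 0.05 was found for 6 of the 8 (75%), against 19.3% of all tested genes. The call of Tfcp2l1 ended without wild-type library 1 (adjusted p = 0.319), without either knockout library, with DESeq2 and with no filter. That of Tdgf1 (limma adjusted p = 0.0444) ended with edgeR on recovered reads (adjusted p = 0.0603), in the authors' deposited table (rate 0.0801), with TMM scaling, with no filter and without either wild-type library or knockout library 2. Of 15 markers of fibroblasts, endoderm, mesoderm and neuroectoderm, 9 had a mean under 1 CPM, and Postn, Mesp1 and Col3a1 were at 0 in 3 of the 4 libraries. Their summed level was 44.5 and 42.7 CPM (wild type) against 33.7 and 38.6 CPM (knockout), of which Sox1, a neuroectoderm regulator, was the largest part and fell (limma adjusted p = 0.0105, and 0.0555 with no filter). Zfp42 and Sox1 both lie on chromosome 8, where 52 of 681 tested genes (7.64%) were called lower, against 3.45% of all tested genes. The part of the chromosome in their values was not tested. The part of the cell type markers in the results on complex I was not tested either. Log2 fold changes here are knockout minus wild type on the log2(CPM + 1) scale, which understates changes of low genes, and a change was called at a limma adjusted p under 0.05 over the 12710 genes whose mean reached 1 CPM. CPM is not scaled to transcript length, so levels are compared between libraries and not between genes.

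Sequence is shown for the 3 subunit genes with the lowest log2 fold change and for the gene with the highest, since these are the extremes of the list. Each run is the stretch of up to 250 bases before the annotated start that overlaps no RefSeq gene, written 5′ to 3′ on the gene's strand, from RefSeq on GRCm38.p6. The Ndufa8 run stops where the neighbouring gene Morn5 begins, and the Ndufa3 run ends 27 bases before its window's start, at an earlier start of Ndufa3 itself. Capitals mark letters that match a searched motif, named after the runs.
Ndufb6, chr4:40279422-40279671, minus strand: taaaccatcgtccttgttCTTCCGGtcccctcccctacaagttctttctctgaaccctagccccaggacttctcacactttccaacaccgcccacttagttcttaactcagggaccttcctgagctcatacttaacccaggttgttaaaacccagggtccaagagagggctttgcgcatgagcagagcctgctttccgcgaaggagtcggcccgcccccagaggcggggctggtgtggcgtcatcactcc
Ndufb2, chr6:39592315-39592564, plus strand: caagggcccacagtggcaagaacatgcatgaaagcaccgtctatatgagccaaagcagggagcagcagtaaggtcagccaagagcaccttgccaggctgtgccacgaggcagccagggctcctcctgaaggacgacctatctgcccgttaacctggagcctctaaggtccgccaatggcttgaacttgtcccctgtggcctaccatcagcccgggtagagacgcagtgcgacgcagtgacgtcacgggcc
Ndufa8, chr2:36049339-36049472, minus strand: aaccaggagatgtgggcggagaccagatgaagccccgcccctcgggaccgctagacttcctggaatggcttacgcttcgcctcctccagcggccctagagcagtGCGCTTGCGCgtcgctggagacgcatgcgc
Ndufa3, chr7:3617123-3617346, plus strand: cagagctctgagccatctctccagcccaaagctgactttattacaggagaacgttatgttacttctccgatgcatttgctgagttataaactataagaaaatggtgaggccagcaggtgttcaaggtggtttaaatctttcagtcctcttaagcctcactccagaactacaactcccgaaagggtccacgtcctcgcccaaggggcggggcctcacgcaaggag

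Motifs of factors with a known part in respiratory gene transcription were searched on both strands in RefSeq windows from 250 bases before to 50 bases after the start. The letters were GCGCA and GCGC with any 1 base between them for NRF1, CCGGAAG for GABP and AANATGGCG for YY1. Windows were found for 39 of the 45 members, some of them with more than 1 window. The NRF1 letters stood in 10 of 41 Nduf windows (24.4%), against 4.60% of all 32851 windows and 9.89% of windows of tested genes. The YY1 letters stood in 7 (17.1%), against 2.38% and 4.99%, and the GABP letters in 5 (12.2%), against 8.86% and 17.1%. GABP and YY1 letters overlapped in 0 of all 32851 windows, so their absence from the Nduf windows says nothing of these genes. The table of windows is not complete, the shares of the 3 motifs hold for the windows in it alone, and a match describes letters and not a bound site.

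Among the sequences shown, the Ndufa8 run held the NRF1 letters from 30 to 21 bases before the start, and the Ndufb6 run held the GABP letters from 232 to 226 bases before it. The Ndufb2 and Ndufa3 windows held none of the 3 motifs. The 16 tested subunit genes with a motif in a window had log2 fold changes from -0.26 to -0.03 with a median of -0.08. The 15 without had a median of -0.06, from -0.30 to 0.16. The lowest and the highest value among these 31 genes were thus both in genes without the letters, Ndufb2 and Ndufa3.

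Most complex I subunit transcripts stood slightly lower in the knockout, and a single Nduf gene, Ndufb6, passed the test. Of 35 subunit genes tested, 27 had a log2 fold change below 0, against 51.0% of all tested genes, and their median was -0.08, against a median of 0.00 over all tested genes. In 19 of 35, both knockout libraries lay below both wild-type libraries, where 25.5% of all tested genes did so, and in 3 of 35 both lay above, against 23.8%. The differences were small, with 26 of 35 within 10% of the wild-type mean, against 67.2% of all tested genes. The 7 Ndufaf assembly factors had a median of -0.02, and none was called, against 5.41% of all tested genes. In RNA from bulk cultures, fewer cells of a type and less RNA per cell cannot be told apart.

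The test called 1 of 44 Nduf genes, lower in the knockout, where 5.41% of all tested genes were called, 3.45% lower and 1.95% higher. At an unadjusted limma p under 0.05 the subunits gave 8 of 35, 6 lower and 2 higher, against a background of 19.3%, made up of 10.8% lower and 8.54% higher. The share called is thus not above the background, and the share with an unadjusted p is near it. The authors' deposited table, from edgeR, also held 1 Nduf gene at a false discovery rate under 0.05, again Ndufb6 (rate 0.0172), where 3.8% of all genes passed. edgeR on the reads recovered from CPM called Ndufb6 alone of the Nduf genes (adjusted p = 0.0405), where 4.19% of genes were called.

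Ndufb6 encodes an accessory subunit of the distal membrane arm with a transmembrane segment, and the gene lies at chr4:40270591-40279421. Its level was 64.2 and 60.3 CPM in the wild-type libraries and 54.7 and 49.2 CPM in the knockout libraries. Both knockout libraries lay below both wild-type libraries. The mean fell by 16.6%, from 62.3 ± 2.78 to 51.9 ± 3.92 CPM (SD, n = 2 each; difference -0.26 on the log2 scale, SE 0.07, limma adjusted p = 0.0359). The call ended without wild-type library 1 (adjusted p = 0.198), without knockout library 2 (adjusted p = 0.239), with no filter on low values (adjusted p = 0.0957) and with DESeq2 on reads recovered from the CPM values (adjusted p = 0.0643). Without knockout library 1 a total of 3 Nduf genes were called, with Ndufb2 (adjusted p = 0.0110) and Ndufa8 (adjusted p = 0.0314) beside Ndufb6. Without wild-type library 2, whose entry names the other kit, Ndufb6 had an adjusted p of 0.0121.

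**Figure D1:**
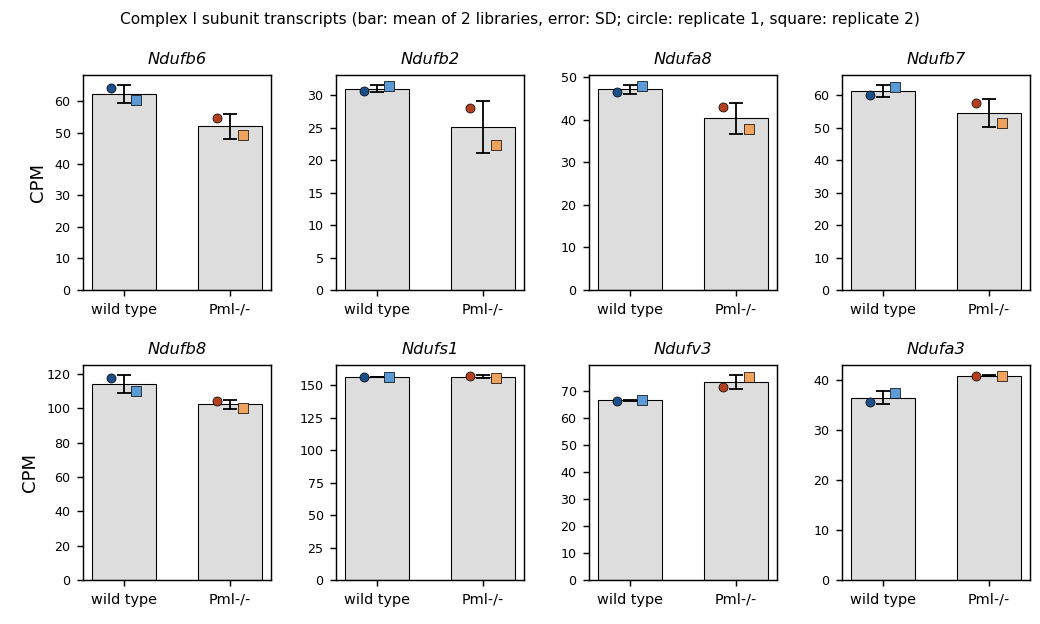
CPM of 8 complex I subunit transcripts in wild-type and Pml-/- cells after paraquat, with bars for the mean of 2 libraries, error bars for the SD, circles for replicate 1 and squares for replicate 2; each y axis starts at 0. In the panels of Ndufb6, Ndufb2, Ndufa8, Ndufb7 and Ndufb8 both Pml-/- points lie below both wild-type points, in those of Ndufv3 and Ndufa3 both lie above, and in that of Ndufs1 the groups overlap.

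The core subunits carry the cofactors and the ubiquinone site, and none of the 7 passed the test, against 5.41% of all tested genes. Ndufv1 binds NADH and the flavin where electrons enter. Its level was 171 and 164 CPM (wild type) against 169 and 153 CPM (knockout), which overlap. Ndufv2, an iron-sulfur protein beside it, was at 126 and 123 CPM (wild type) against 126 and 135 CPM (knockout). Ndufs1, which holds several iron-sulfur clusters of the N module, stood at 156 CPM in both wild-type libraries and at 157 and 156 CPM in the knockout. The N module genes overlapped between genotypes in all 3 cases, as did 6445 of all 12710 tested genes. Their log2 fold changes ran from -0.06 to 0.07, with 95% intervals within -0.17 and 0.18.

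The core genes Ndufs7, Ndufs8 and Ndufs3 of the Q module had both knockout libraries below both wild-type libraries, and none passed the test. Over the 7 core subunits of both modules these were 3 (42.9%), against 25.5% of all tested genes. Ndufs7, an iron-sulfur subunit next to the ubiquinone pocket, was at 56.4 and 56.3 CPM (wild type) against 54.5 and 50.1 CPM (knockout). For Ndufs7 the groups did not overlap, and its log2 fold change of -0.11 (SE 0.06, limma adjusted p = 0.397) did not pass. Ndufs8, another iron-sulfur protein, was at 57.3 and 55.6 CPM (wild type) against 53.3 and 53.4 CPM (knockout). Ndufs3, a scaffold of this module, was at 52.3 and 51.1 CPM (wild type) against 48.7 and 49.3 CPM (knockout). Both were lower in each knockout library without passing (adjusted p = 0.518 and 0.555).

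Accessory subunits of the matrix arm had a median log2 fold change of -0.06 over 9 genes. Of the 9, 7 were below 0, against 51.0% of all tested genes. The exceptions were Ndufv3 and Ndufa12. Ndufv3, a small protein at the tip of the N module, was at 66.5 and 66.8 CPM (wild type) against 71.6 and 75.2 CPM (knockout). Both knockout libraries lay above wild type, at 10.1% over the mean, and the difference did not pass (difference 0.14 on the log2 scale, SE 0.06; limma adjusted p = 0.198). Ndufa12, which sits where the N and Q modules meet, was at 39.7 and 40.6 CPM (wild type) against 38.1 and 46.5 CPM (knockout), so the knockout libraries lay on both sides of wild type. Ndufa9, a subunit with a nucleotide-binding fold, had the lowest value of this group at -0.12 (limma adjusted p = 0.256). The remaining 6 genes, Ndufa2, Ndufa5, Ndufa6, Ndufa7, Ndufs4 and Ndufs6, lay between -0.09 and -0.03.

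**Figure D2:**
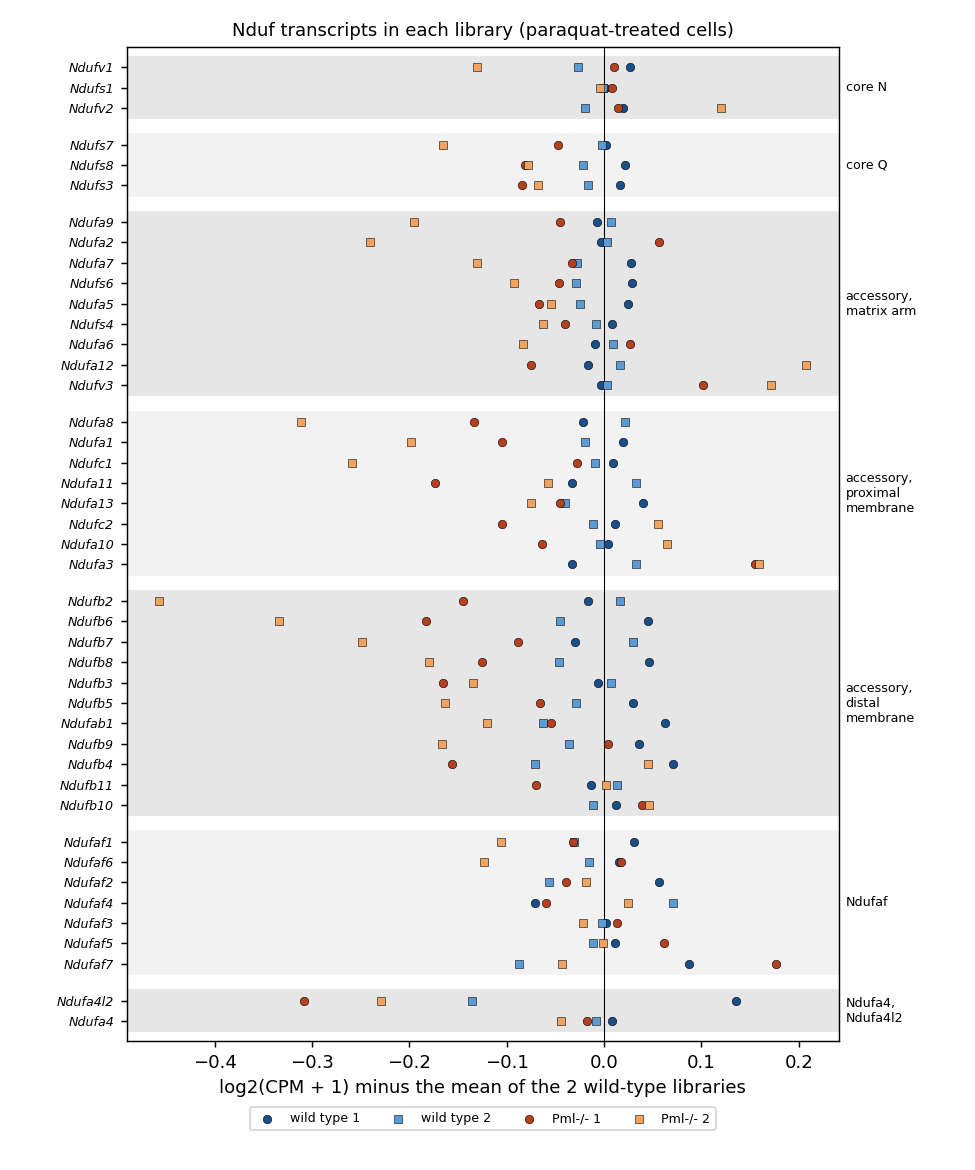
Level of tested Nduf transcripts in each library, as log2(CPM + 1) minus the mean of the 2 wild-type libraries, grouped by role; blue points are wild type, orange and red points Pml-/-. Knockout library 2 was the lowest of the 4 libraries for 20 of the 35 subunits, and the distal membrane arm genes reach furthest to the left.

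In the proximal part of the membrane arm 6 of 8 tested genes were below 0, against 51.0% of all tested genes. The median of these 8 was -0.09. Ndufa8, a cysteine-rich protein of the intermembrane space side at chr2:36036324-36049338, was at 46.4 and 47.8 CPM (wild type) against 42.9 and 37.8 CPM (knockout). The groups did not overlap, and the difference of -0.22 (SE 0.07) had a limma adjusted p of 0.0945. Ndufa1, an X-linked subunit needed for assembly, was at 33.0 and 32.2 CPM (wild type) against 30.2 and 28.3 CPM (knockout). Ndufc1, a small membrane subunit, was at 42.95 and 42.4 CPM (wild type) against 41.8 and 35.5 CPM (knockout). In both genes the knockout libraries were the lower ones, and neither passed (adjusted p = 0.289 and 0.345).

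Ndufa3, a small transmembrane subunit at chr7:3617347-3620165, had the highest log2 fold change of the list. It was at 35.7 and 37.4 CPM (wild type) against 40.8 and 40.9 CPM (knockout) (difference 0.16 on the log2 scale, SE 0.07; limma adjusted p = 0.219). Both knockout libraries lay above wild type. Ndufa10, a subunit with a nucleoside kinase fold, was at 138 and 137 CPM (wild type) against 132 and 144 CPM (knockout). Its knockout libraries stood on either side of wild type. Ndufa11, Ndufa13 and Ndufc2 had values of -0.12, -0.06 and -0.02. Ndufs5, an intermembrane space subunit of this part of the enzyme, is listed at 0 reads in all 4 libraries, and the labels do not say how reads matching several genes were counted.

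The distal membrane arm held the largest share of lower values, 10 of 11 tested genes, at a median of -0.11. Of all tested genes 51.0% were below 0. Summed over its genes the level was 738 and 715 CPM (wild type) against 688 and 655 CPM (knockout). In 6 of the 11 (54.5%) both knockout libraries lay below both wild-type libraries, beside 54.3% of all tested subunits and 25.5% of all tested genes. The median log2 deviation from a gene's mean over the 4 libraries was 0.09 and 0.03 (wild type) against -0.01 and -0.10 (knockout). Wild-type library 1 and knockout library 2 thus stood furthest from that mean. Ndufb2, a small subunit at chr6:39592565-39599843, had the lowest log2 fold change of all subunits. It was at 30.7 and 31.4 CPM (wild type) against 28.0 and 22.3 CPM (knockout) (-0.30, SE 0.095, limma adjusted p = 0.0836). The knockout libraries did not overlap with wild type but lay further apart from each other than the nearer of them lay from wild type.

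Ndufb7, a cysteine-rich intermembrane space protein, was at 60.0 and 62.6 CPM (wild type) against 57.6 and 51.4 CPM (knockout) (adjusted p = 0.174). Ndufb8, a transmembrane subunit, was at 117 and 110 CPM (wild type) against 104 and 100.2 CPM (knockout) (adjusted p = 0.120). Ndufb3, a small membrane subunit, was at 28.5 and 28.8 CPM (wild type) against 25.5 and 26.0 CPM (knockout) (adjusted p = 0.305). All 3 had both knockout libraries below both wild-type libraries, and none passed limma. The single gene of this group above 0 was Ndufb10, another cysteine-rich subunit, at 64.7 and 63.7 CPM (wild type) against 66.0 and 66.3 CPM (knockout). Ndufab1, the acyl carrier protein of mitochondrial fatty acid synthesis, also sits in complex I and was counted with the distal membrane arm alone. Its value was -0.09, and Ndufb4, Ndufb5, Ndufb9 and Ndufb11 lay between -0.11 and -0.03.

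**Figure D3:**
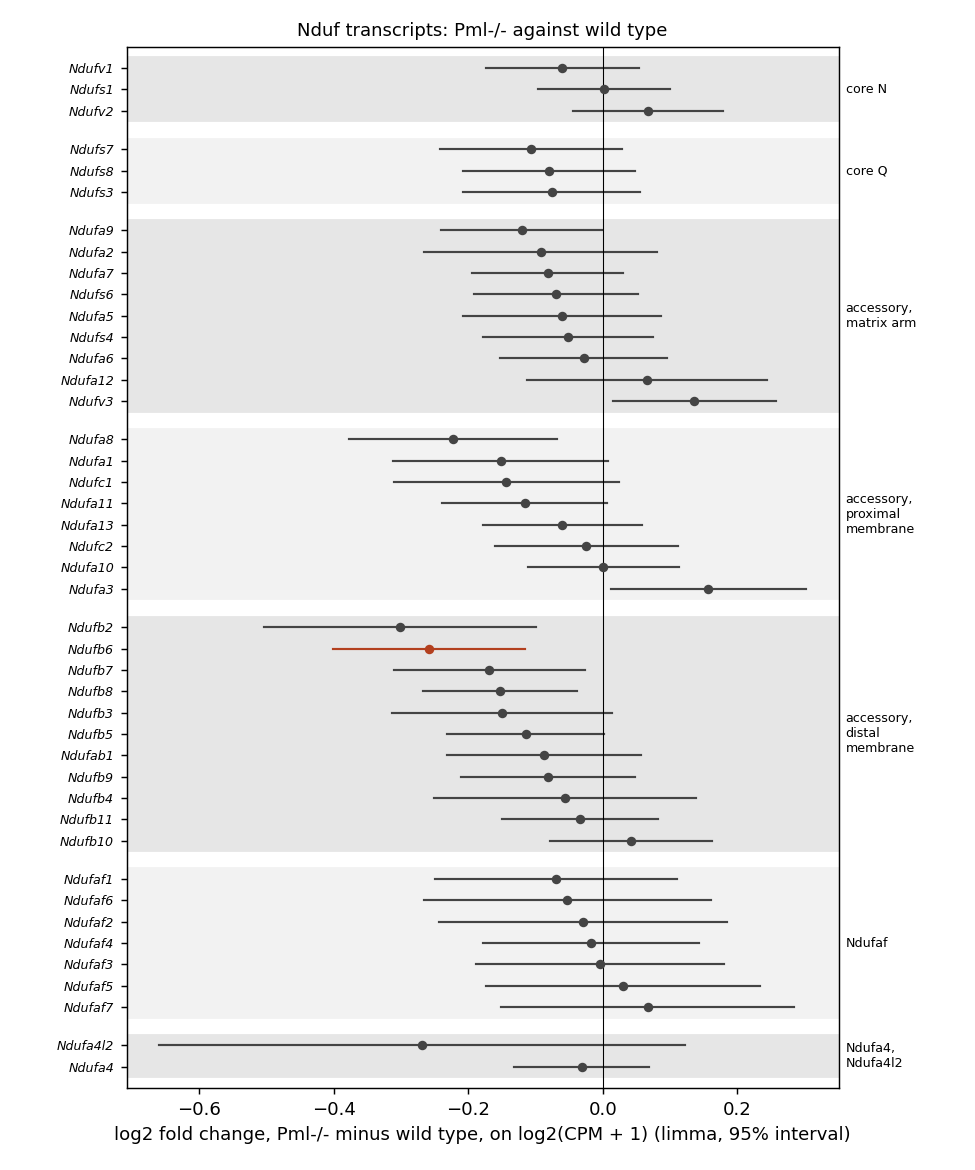
Log2 fold change (Pml-/- minus wild type, on log2(CPM + 1)) of tested Nduf transcripts with 95% intervals from limma, grouped by role; the gene in red, Ndufb6, passed an adjusted p of 0.05. The points run from -0.30 for Ndufb2 to 0.16 for Ndufa3, and the 7 Ndufaf points lie between -0.07 and 0.07.

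Set side by side, the arms differed in their medians, at -0.06 over 16 tested subunits of the matrix arm and -0.11 over 19 of the membrane arm. In the membrane arm 16 of 19 were below 0 and in the matrix arm 11 of 16, against 51.0% of all tested genes. In complexes II to V pooled, 28 of 38 (73.7%) were below 0. This difference between the arms was not tested. Over all subunits the summed level was 2759 and 2701 CPM (wild type) against 2658 and 2597 CPM (knockout), so the knockout sums were the lower ones, a change of -3.75% in the mean. Knockout library 2 was the lowest of the 4 for 20 of 35 subunits, against 29.6% of all tested genes. The subunit median was -0.046 without wild-type library 1 and -0.098 without wild-type library 2. It was -0.083 without knockout library 1 and -0.054 without knockout library 2.

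Ndufa13 and Ndufb7 lie on chromosome 8, where a larger share of genes was called lower than over the genome, 52 of 681 tested genes with 8 higher and a median of -0.06. Their own values were -0.06 and -0.17, and the part of the chromosome in them was not tested. RefSeq lists further Nduf copies that were not matched to the deposited table, such as Ndufb4b, Ndufb4c, Ndufa12-ps, Ndufab1-ps, Ndufs6b, Ndufa11b and Ndufs5-ps. The levels of the genes they resemble are therefore uncertain where reads match both copies. Ndufb1, a distal membrane arm subunit, was not matched either, and none of the 7 mitochondrially encoded subunits was matched, so the pump core was not analysed here.

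The Ndufaf assembly factors stood at or near the wild-type level, and 6 of 7 overlapped between genotypes, as did 6445 of all 12710 tested genes. Ndufaf1, which acts with a membrane arm assembly complex, was at 23.1 and 22.1 CPM (wild type) against 22.1 and 20.95 CPM (knockout). Ndufaf2, a paralog of Ndufa12 that binds a late intermediate, was at 14.3 and 13.1 CPM (wild type) against 13.3 and 13.5 CPM (knockout). Only for Ndufaf1, among these 7, were both knockout libraries below both wild-type libraries, and there the margin was within the spread of either pair (log2 fold change -0.07, SE 0.08).

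Ndufaf3 and Ndufaf4 bind each other and act on the early Q module. Ndufaf3 was at 19.5 and 19.4 CPM (wild type) against 19.7 and 19.2 CPM (knockout), and Ndufaf4 at 33.6 and 37.2 CPM (wild type) against 33.9 and 36.0 CPM (knockout). Ndufaf5, which hydroxylates an arginine of Ndufs7, was at 15.0 and 14.8 CPM (wild type) against 15.6 and 14.9 CPM (knockout). In these genes the knockout values lay among the wild-type values or within 1 CPM of them.

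Ndufaf6, an early assembly factor, was at 14.7 and 14.3 CPM (wild type) against 14.7 and 13.2 CPM (knockout). Ndufaf7, a protein arginine methyltransferase of early assembly, was at 18.96 and 16.7 CPM (wild type) against 20.2 and 17.2 CPM (knockout). The libraries of each genotype thus overlapped in both. Limma adjusted p-values of the 7 genes ran from 0.718 to 0.988. The narrowest 95% interval, that of Ndufaf4, ran from -0.18 to 0.14, and the widest, that of Ndufaf7, from -0.15 to 0.29. The median of the 7 log2 fold changes turned to 0.01 without knockout library 2. Ndufaf8, the partner of Ndufaf5, is in the table under the older symbol 1810043H04Rik, at 9.72 and 10.1 CPM (wild type) against 11.7 and 9.86 CPM (knockout).

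Ndufa4 was at 149 and 147 CPM (wild type) against 146 and 143 CPM (knockout) (difference -0.03 on the log2 scale, SE 0.05; limma adjusted p = 0.780). Ndufa4l2, a hypoxia-responsive paralog, was at 1.47 and 1.04 CPM (wild type) against 0.81 and 0.92 CPM (knockout), from 46, 46, 31 and 40 reads. Both knockout libraries were lower, and the difference did not pass (difference -0.27 on the log2 scale, SE 0.18; limma adjusted p = 0.469). Its mean over the 4 libraries was just above the filter of 1 CPM, and the wild-type libraries brought it there.

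**Figure D4:**
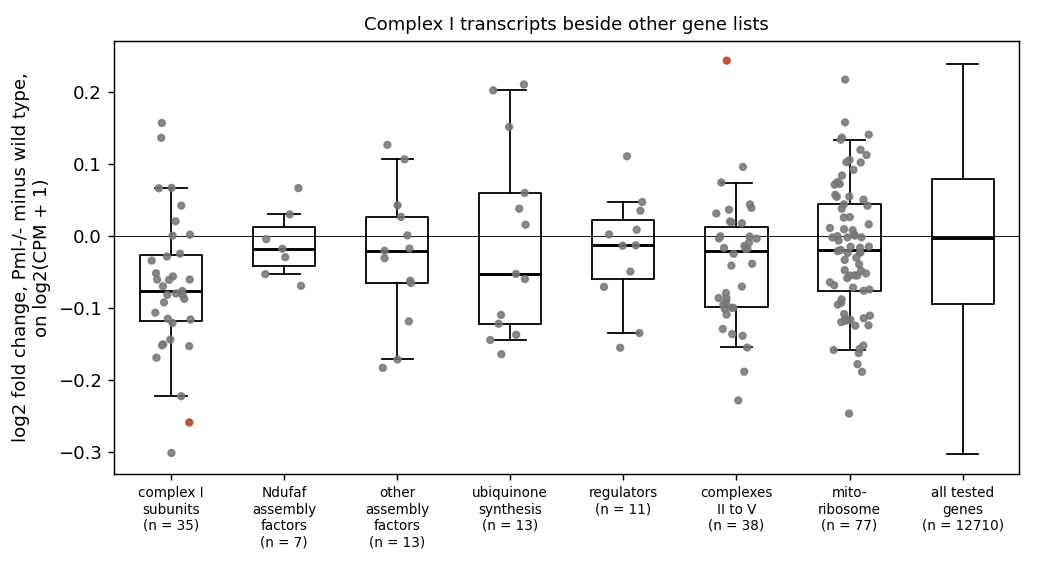
Log2 fold change (Pml-/- minus wild type, on log2(CPM + 1)) of tested genes by list, with boxes for the quartiles, whiskers for the 5th and 95th percentiles, 1 point per gene except for all tested genes, and red points for genes past an adjusted p of 0.05. The median of complex I subunits is -0.08, that of complexes II to V pooled and of the mitochondrial ribosome -0.02, and that of all tested genes 0.00.

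Assembly factors not named Nduf gave 0 of 13 called by limma, against 5.41% of all tested genes, with a median of -0.02. At an unadjusted limma p under 0.05 the number was also 0, against 19.3% of all tested genes. Timmdc1, a membrane arm assembly factor, was at 31.0 and 28.1 CPM (wild type) against 27.8 and 24.5 CPM (knockout) (limma adjusted p = 0.300). Nubpl, which delivers iron-sulfur clusters to complex I, was at 16.7 and 17.9 CPM (wild type) against 15.9 and 14.3 CPM (knockout) (adjusted p = 0.329). Both were lower in each knockout library without passing limma. They were the only 2 of the 13 (15.4%) to be lower in each, against 25.5% of all tested genes. In 4 of the 13 (30.8%), Acad9, Ecsit, Tmem186 and Lyrm2, both knockout libraries lay above wild type, against 23.8% of all tested genes. Among genes of ubiquinone synthesis, whose product takes the electrons of complex I, 0 of 13 were called, against 5.41% of all tested genes. An unadjusted limma p under 0.05 was found for 2 of the 13 (15.4%), against 19.3%. These were Pdss1, at a log2 fold change of 0.20 (limma adjusted p = 0.223), and Coq9, on chromosome 8, at -0.16 (adjusted p = 0.248).

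Regulators of respiratory gene transcription gave 0 of 11 tested genes called, against 5.41% of all tested genes. At an unadjusted limma p under 0.05 there was 1 gene, against 19.3% of all tested genes. This was Pprc1, a coactivator of the PGC1 family, at 275 and 286 CPM (wild type) against 300.0 and 306 CPM (knockout) (limma adjusted p = 0.176). Esrra, a nuclear receptor, was at -0.13 (adjusted p = 0.435). Nrf1, Gabpa and Yy1, whose motifs were searched above, had log2 fold changes of -0.01, 0.05 and -0.01. Ppargc1a is listed at 0 in all 4 libraries.

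Of the 38 subunits of complexes II to V, 1 was called (2.63%), against 5.41% of all tested genes. Their median was -0.02, and the complexes had different medians. Complex III had a median of -0.09, near that of complex I, with 7 of 9 genes below 0, against 51.0% of all tested genes. Both knockout libraries lay below wild type in 5 of the 9, against 25.5%, and the summed level changed by -4.30%. Complex IV had a median of -0.05, with 6 of 10 genes below wild type in both knockout libraries, against the same 25.5%. Complexes II and V had medians of -0.03 and -0.01. Cox5b, a subunit of complex IV, rose from 118 and 119 CPM to 135 and 147 CPM (difference 0.24 on the log2 scale, SE 0.05; limma adjusted p = 0.0132). That call ended without knockout library 2 (adjusted p = 0.0998) and with no filter (adjusted p = 0.0547). In 15 of the 38 both knockout libraries lay below wild type and in 5 both lay above, beside 19 and 3 of the 35 complex I subunits. Over all tested genes the shares were 25.5% and 23.8%. Uqcr11, a small subunit of complex III, was at 64.6 and 67.4 CPM (wild type) against 57.5 and 58.0 CPM (knockout) without passing (adjusted p = 0.0789). The 77 mitochondrial ribosomal protein genes had a median of -0.02 with 0 called, against 5.41% of all tested genes. Of the 77, 10 had an unadjusted limma p under 0.05, a smaller share than the 19.3% of all tested genes. No test compared these lists with complex I, and values lower in the knockout were not limited to it.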

How the data were processed

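Polyadenylated RNA was sequenced from 4 libraries, and 2 chromatin samples of the series were not analysed here. Per the submitters' processing notes, the authors trimmed reads with cutadapt, aligned them with TopHat to mm10 and used edgeR. The labels used here do not give versions, annotation, strand use or how reads matching several genes were counted. In the deposited table each library has a CPM value, and the authors added a log2 fold change, a mean on the log2 scale, a p-value and a false discovery rate. CPM values were whole multiples of 1 read for 100% of values within 0.001 reads, which gave the read totals; 1 CPM is 31.4 to 44.1 reads.

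Limma-trend (limma 3.58.1, R 4.3.3) was fitted on log2(CPM + 1) with genotype as the only term over 12710 genes whose mean reached 1 CPM, with Benjamini-Hochberg adjustment over all of them. Alternatives were pseudocounts of 0.5 and 5, no filter (genes at 0 in all libraries left out) or a filter of 5 CPM, TMM scaling, edgeR 4.0.16 and DESeq2 1.42.0 on recovered reads, each library left out, and the replicate number as a block. edgeR on recovered reads called 620 of 14782 genes, 1 of them an Nduf gene. The fits were tested on simulated reads. The members and gene lists were chosen with earlier results of these data known. Genes given by library were those called, the core subunits, all Ndufaf genes, Ndufa4, Ndufa4l2 and the 8 subunits at each end of the log2 fold changes; of other lists, those called and up to 2 with the smallest adjusted p. A member counted in the totals is not reported by name here, in text or figures. The mitochondrial ribosomal list was taken by gene name. Positions come from RefSeq on GRCm38.p6, where all 45 symbols matched.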

Additional observations from a re-analysis of the deposited data

How the results depend on the processing

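The number of genes called was 687 with all 4 libraries and 298 with no filter on low values. Leaving out each library in turn gave 367 to 869 genes. The number of Nduf genes called was 1, and it was 0 with no filter and 0 with DESeq2; leaving out each library gave 0 to 3. The subunit median of -0.08 ran from -0.098 to -0.046 when each library was left out, and was -0.08 to -0.07 under the pseudocounts, filters, TMM scaling, edgeR, DESeq2 and the wider list with Ndufa4 and Ndufa4l2. The median of the Ndufaf genes was -0.02, from -0.021 to 0.013 with each library left out, and -0.01 with Ndufaf8 added after seeing the data. With the replicate number as a block, 1198 genes and 3 Nduf genes were called, adding Ndufb2 (adjusted p = 0.0154) and Ndufa8 (adjusted p = 0.0343). The labels do not say that a number marks a shared batch. Across genes, same-numbered libraries deviated from their group means with a correlation of 0.12. With 2 libraries per group the other pairing must give the same value with the sign turned, -0.12. The correlation therefore cannot decide whether a number marks a batch. The cause of the shifts between settings was not tested. With 1 library left in a genotype, it is assumed to vary like the others. Signs of uncalled genes near 0 changed in 15 of the values recomputed, and no called gene reversed. Depth limits Ndufa4l2, at 31 to 46 reads.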
